A study of Mus musculus with 6 samples.

Results

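The reactive astrocyte genes described here were 10 genes, Gfap, Vim, Serpina3n, Lcn2, Cd44, Osmr, Steap4, S1pr3, Timp1 and Cp, taken by their names from a table of 54532 genes. All 10 were in the table and all 10 passed a minimum mean FPKM (fragments per kilobase of gene, scaled to library depth) of 0.1, as did 20952 genes in all. RNA was sequenced from the hippocampus of 3 WT mice and 3 TG mice. The line was made on a C57BL/6N background, and founder mice were mated with C57BL/6 mice. The TG mice carried the G82R and L85P changes together in exon 3 of the endogenous Slc1a2 gene, made with CRISPR/Cas9, and no other allele or treatment was named for either group. Slc1a2 encodes GLT-1, the main glutamate transporter of astrocytes. Zygosity, age and sex of the sequenced mice are not given in the sources used here. Per the methods, the WT controls of the study were littermates, and which of the sequenced mice shared a litter is not given. The numbers give the names WT1, WT2, WT3, TG1, TG2 and TG3 used for the libraries.

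Astrocytes respond to injury, inflammation or seizures by enlarging their processes and switching on a set of genes known as reactive. This set includes intermediate filament proteins, secreted protease inhibitors and iron-binding proteins, and receptors at the cell surface. Cytokines of the interleukin-6 family, which signal through gp130 and STAT3, are among the best known inducers. Several of these genes are not restricted to astrocytes in the resting brain. Vim is also made by cells of blood vessels, meninges and ependyma, and Timp1, Cd44, S1pr3 and Osmr by vascular or stromal cells. In whole hippocampus, fewer cells of a type and less RNA per cell cannot be told apart.

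Of the 10 genes, 0 passed an adjusted p under 0.05 for the difference between WT and TG mice, beside 0.00955% of all genes tested in limma. At an unadjusted p under 0.05, 2 of the 10 were higher and 0 were lower in TG hippocampus, where 3.13% of all genes tested were higher and 2.78% lower, 5.91% together. These 2 were Timp1, an inhibitor of matrix metalloproteases, and Steap4, a metalloreductase, and both were counted from few reads. Osmr, the receptor subunit for oncostatin M, was higher in every TG library than in every WT library, by a ratio of means of 1.33. Gfap, Vim and Serpina3n, the most abundant of these genes, overlapped between the groups, with log2 differences of 0.14, 0.13 and 0.05.

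Stretches around the transcription start are shown for the 3 genes that stood out, Osmr, Timp1 and Steap4, and for Gfap, the gene most often used to mark astrocytes. Each runs from 250 bases before to 50 bases after a start in RefSeq (GRCm38.p6). Capitals mark matches to a STAT motif (TTCNNNGAA) or to a broad AP-1 motif (TGANTCA), which allows any base at its centre. Both motifs read the same on either strand when N is any base. The windows are chr15:6874264-6874563 on the minus strand for Osmr, chrX:20869916-20870215 on the plus strand for Timp1, chr5:7960222-7960521 on the plus strand for Steap4 and chr11:102897151-102897450 on the minus strand for Gfap.
Osmr: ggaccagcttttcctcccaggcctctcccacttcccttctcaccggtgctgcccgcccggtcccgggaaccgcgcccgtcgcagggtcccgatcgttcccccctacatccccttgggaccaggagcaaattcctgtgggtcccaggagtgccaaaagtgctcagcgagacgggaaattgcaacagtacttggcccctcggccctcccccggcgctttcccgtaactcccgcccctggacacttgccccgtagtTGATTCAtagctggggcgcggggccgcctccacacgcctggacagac
Timp1: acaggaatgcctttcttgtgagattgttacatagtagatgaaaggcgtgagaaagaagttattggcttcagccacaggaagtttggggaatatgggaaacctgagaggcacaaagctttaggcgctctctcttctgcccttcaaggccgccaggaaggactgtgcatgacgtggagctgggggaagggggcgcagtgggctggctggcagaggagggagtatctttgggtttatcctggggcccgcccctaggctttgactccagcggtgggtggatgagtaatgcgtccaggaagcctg
Steap4: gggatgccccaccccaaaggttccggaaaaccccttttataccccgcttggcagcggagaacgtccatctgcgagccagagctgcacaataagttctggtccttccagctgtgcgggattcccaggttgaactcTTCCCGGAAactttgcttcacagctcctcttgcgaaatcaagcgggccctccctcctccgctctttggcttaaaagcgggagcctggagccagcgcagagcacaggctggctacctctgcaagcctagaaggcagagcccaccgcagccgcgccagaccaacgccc
Gfap: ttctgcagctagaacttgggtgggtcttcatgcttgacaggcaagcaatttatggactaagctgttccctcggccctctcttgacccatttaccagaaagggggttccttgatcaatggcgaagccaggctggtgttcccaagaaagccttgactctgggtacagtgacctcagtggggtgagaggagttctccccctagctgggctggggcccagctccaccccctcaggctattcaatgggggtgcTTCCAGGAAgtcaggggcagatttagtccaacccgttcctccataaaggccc

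The STAT motif was found in 2 of the 11 windows of the 10 genes, those of Steap4 and Gfap, and in 8.30% of 32851 mouse promoter windows of this length. The match begins 116 bases before the start in Steap4 and 2 bases before it in Gfap. The broad AP-1 motif was also found in 2 of the 11 windows, those of Osmr and Cp, and in 7.81% of all windows. Both of these matches read TGATTCA, so they rest on the free base at the centre being T. The window printed for Timp1 held neither motif. These matches describe the letters in the windows and were not tested for binding.

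The libraries held 16081281 to 18751057 reads on genes, so that 3 reads over 1 kb made an FPKM of 0.160 to 0.190. Slc1a2 itself (chr2:102658659-102790784, GRCm38) was measured at an FPKM of 202, 199.5 and 177 in WT1 to WT3 against 222, 207 and 217 in TG1 to TG3. FPKM carry no bases, so the 2 changes were not read here. The 15 astrocyte genes used as markers, such as Glul and S100b, summed to an FPKM of 1317 to 1522, so astrocyte RNA was abundant in every library. 2 sets of libraries stood apart in other cell types. The 15 choroid plexus genes summed to 1222 in TG1 and 3855 in TG2 and to 59.6 to 87.5 in the others, with Ttr at 1168 and 3705 in those libraries. The 10 meningeal fibroblast genes summed to 39.8 in WT1 against 24.5 and 22.0 in WT2 and WT3, and to 33.0, 25.2 and 30.4 in TG1 to TG3. Mural cell genes had the same order of libraries at the top, with sums of 102.8 in WT1, 99.95 in TG1 and 88.9 in TG3 against 68.7 to 71.6 in the other 3. Values of the 10 genes that rest on these libraries are given below with and without them.

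The levels of the 10 genes spread over a wide range of FPKM. Gfap was the highest, with a mean over all libraries above that of 98.0% of the genes tested, followed by Serpina3n and Vim, and the ranges of these 3 over the 6 libraries did not touch. Lcn2, Cp and S1pr3 followed at mean FPKM between 2.07 and 2.99, where the ranges of neighbours overlapped and Lcn2 was above Cp in 4 of 6 libraries. Cd44, Osmr, Timp1 and Steap4 each had a mean FPKM under 1. S1pr3 lay above Cd44 in all libraries, whereas the ranges of Cd44, Osmr, Timp1 and Steap4 overlapped with those of their neighbours.

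**Figure D1:**
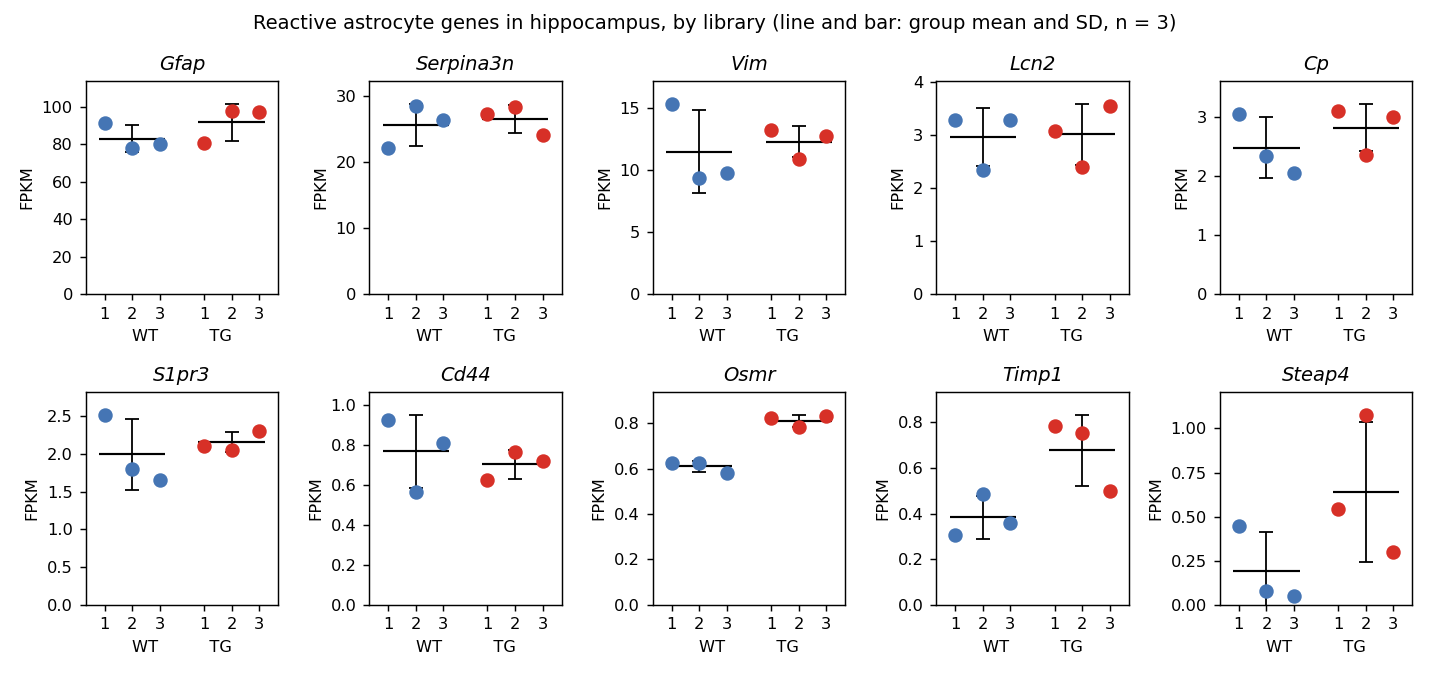
FPKM (y axis, from 0) of each gene in the 6 hippocampal libraries (x axis, WT in blue and TG in red), with the group mean as a line and the SD as a bar (n = 3). The 3 TG points lie above the 3 WT points for Osmr and Timp1 and overlap with them for the other 8 genes.

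Intermediate filaments form the skeleton of the enlarged processes of reactive astrocytes, and Gfap and Vim are its classical members. Gfap (ENSMUSG00000020932, chr11:102887336-102900912, minus strand) had an FPKM of 91.1, 77.7 and 79.9 in WT1 to WT3 against 80.3, 97.4 and 97.1 in TG1 to TG3. The groups overlapped, since TG1 lay close to WT3 and below WT1, while TG2 and TG3 were the highest of the 6 libraries. The means were 82.9 ± 7.20 in WT and 91.6 ± 9.80 in TG mice (SD, n = 3). On the log2(FPKM + 0.1) scale the difference, TG minus WT, was 0.14 (standard error 0.105, 95% confidence interval -0.10 to 0.39, limma, adjusted p = 0.789). With 5292 to 7400 reads a library, counting error was small beside this spread. The interval corresponds to a TG to WT ratio of 0.931 to 1.31. Without TG1 the difference was 0.23 (limma, unadjusted p = 0.0451, adjusted p = 0.898).

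Vim (ENSMUSG00000026728, chr2:13573927-13582826, plus strand) had an FPKM of 15.3, 9.36 and 9.74 in WT1 to WT3 against 13.2, 10.9 and 12.8 in TG1 to TG3. WT1 was the highest library of the 6, and all 3 TG libraries lay between WT1 and the other WT libraries. The means were 11.5 ± 3.35 and 12.3 ± 1.23 (SD, n = 3), and the log2 difference was 0.13 (interval -0.31 to 0.57, limma, adjusted p = 0.871). WT1 was also the library with the highest meningeal and mural sums. Without WT1 the log2 difference of Vim became 0.36 (unadjusted p = 0.0177, adjusted p = 0.682 in limma), and with the meningeal score as a covariate it became -0.02. Nes, which encodes the intermediate filament nestin of progenitors and reactive astrocytes, had the same high value in WT1, with an FPKM of 2.29, 1.21 and 1.22 in WT mice and of 1.64, 1.38 and 1.44 in TG mice.

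Among the secreted proteins, Serpina3n, an inhibitor of serine proteases, was the most abundant. Its gene (ENSMUSG00000021091, chr12:104406729-104414329, plus strand) had an FPKM of 22.2, 28.4 and 26.3 in WT1 to WT3 against 27.2, 28.3 and 24.1 in TG1 to TG3. Both groups covered nearly the same range, and the highest value was in WT2 and the lowest in WT1. The log2 difference was 0.05 (interval -0.20 to 0.31, limma, adjusted p = 0.908), and it was -0.05 without WT1 and -0.06 with the choroid plexus score as a covariate. Serpina3n lies among near copies, and 6.90% of the 50-base stretches of its transcripts occur in other genes, most often Serpina3e-ps, Serpina3g and Serpina3c. Of these, Serpina3g had mean values of 0.900 ± 0.212 in WT and 1.22 ± 0.319 in TG mice (SD, n = 3), and the rule for reads that match several genes is not given in the sources used here. Serpina3f, another paralog, had 3 to 21 reads a library and an FPKM of 0.0709, 0.0811 and 0.210 in WT and 0.580, 0.195 and 0.363 in TG mice (log2 difference 1.09, limma, unadjusted p = 0.0422, adjusted p = 0.786). Serpina3c (log2 difference -0.34) and Serpina3h (-1.02) pointed the other way, at 0 to 8 reads a library for Serpina3h, and neither reached an unadjusted p of 0.05.

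Lcn2 (ENSMUSG00000026822, chr2:32384633-32388252, minus strand) encodes lipocalin 2, which binds bacterial iron chelators and is strongly induced in reactive astrocytes and made by neutrophils. Its FPKM was 3.28, 2.34 and 3.28 in WT1 to WT3 against 3.08, 2.40 and 3.55 in TG1 to TG3. The pattern was the same in both groups, 1 low library and 2 higher ones, and the groups overlapped throughout. Its log2 difference was 0.02 (standard error 0.188, interval -0.42 to 0.46, limma, adjusted p = 0.984), on 99 to 168 reads a library. Its sign was not stable, with values from -0.14 to 0.17 when 1 library was left out, -0.014 after quantile normalization and 0.30 with the choroid plexus score as a covariate. Neutrophil genes such as S100a8 were detected in all libraries, with sums over 8 genes of 28.2 in WT3 and 22.9 in TG3 and of 12.8 or less in the other 4, and their part in the Lcn2 value was not tested. Slc22a17, the gene of a lipocalin 2 receptor, had a mean FPKM of 153 ± 3.99 in WT and 166 ± 20.0 in TG mice (SD, n = 3; log2 difference 0.12, limma, adjusted p = 0.789).

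Cp (ENSMUSG00000003617, chr3:19957054-20009145, plus strand) encodes ceruloplasmin, a copper-containing ferroxidase that astrocytes carry at the membrane. Its FPKM was 3.05, 2.34 and 2.05 in WT1 to WT3 against 3.10, 2.36 and 3.00 in TG1 to TG3. TG1 was the highest library and WT3 the lowest, and WT1 lay with the 2 higher TG libraries. The difference on the log2 scale was 0.19 (interval -0.23 to 0.60, limma, adjusted p = 0.796). It was 0.34 without WT1 (unadjusted p = 0.0891) and 0.06 with the meningeal score as a covariate. The gene shares 108 exonic bases, 1.13% of its exonic length, with Hps3 on the opposite strand, and the strand setting of the counting is not given in the sources used here. Heph, the gene of the related ferroxidase hephaestin, differed by 0.0032 on the log2 scale.

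Timp1 (ENSMUSG00000001131, chrX:20870166-20874735, plus strand) had an FPKM of 0.305, 0.488 and 0.361 in WT1 to WT3 against 0.783, 0.754 and 0.499 in TG1 to TG3. The 3 TG values were above the 3 WT values, but the lowest TG value was close to the highest WT value. Only 5, 7 and 6 reads stood behind the WT values and 11, 12 and 8 behind the TG values, in total 18 reads (exact Poisson interval 10.7 to 28.4) against 31 reads (21.1 to 44.0), intervals that overlap and cover counting error only. The means were 0.384 ± 0.0940 and 0.678 ± 0.156 (SD, n = 3), a ratio of 1.76. On the log2 scale it differed by 0.68 (standard error 0.269, interval 0.05 to 1.31), with an unadjusted p of 0.0380 and an adjusted p of 0.786 in limma. A fit to the recovered reads with limma-voom gave 0.77 (unadjusted p = 0.122, adjusted p = 0.750). With the choroid plexus score as a covariate the difference was 0.39 (unadjusted p = 0.315), and without TG1 and TG2 it was 0.32 (unadjusted p = 0.390). Leaving out WT1, WT3, TG1 or TG2 alone gave 0.56, 0.65, 0.58 and 0.60, with unadjusted p of 0.104, 0.0845, 0.108 and 0.104 in limma. Timp1 lies inside Syn1, a neuronal gene on the other strand with an FPKM of 152 to 187, with which it shares 0 exonic bases, and without strand, reads of unspliced Syn1 RNA and of Timp1 cannot be told apart there. Syn1 itself differed by 0.07 on the log2 scale (adjusted p = 0.849 in limma).

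Other genes of the same system had more reads. Timp3, an inhibitor bound to the extracellular matrix, had an FPKM of 8.67, 6.58 and 5.80 in WT1 to WT3 against 10.5, 10.1 and 8.91 in TG1 to TG3, so that all TG libraries lay above all WT libraries. Its log2 difference was 0.50 (interval 0.15 to 0.85, limma, unadjusted p = 0.0120, adjusted p = 0.786), and it was named after its values were seen. Timp3 is known to be abundant in choroid plexus and vascular cells, and TG1 and TG2 were its highest libraries. The difference was 0.35 with the choroid plexus score as a covariate (unadjusted p = 0.135) and 0.36 without TG1 and TG2 (unadjusted p = 0.264). Cd63, a membrane protein to which Timp1 binds, had a mean FPKM of 12.1 ± 1.73 in WT and 14.2 ± 3.82 in TG mice (SD, n = 3; log2 difference 0.21, adjusted p = 0.791 in limma), with its highest value of 18.6 in TG2 and a difference of 0.0052 without TG1 and TG2.

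At the cell surface, Osmr (ENSMUSG00000022146, chr15:6813577-6874969, minus strand) separated the groups with the smallest spread. Its FPKM was 0.625, 0.624 and 0.582 in WT1 to WT3 against 0.824, 0.783 and 0.832 in TG1 to TG3. The 3 WT libraries lay close together, as did the 3 TG libraries, with a gap between them wider than either range. The means were 0.610 ± 0.0244 and 0.813 ± 0.0264 (SD, n = 3). The exonic length of 12113 bases gave 122 to 182 reads a library, in total 394 (exact Poisson interval 356 to 435) in WT and 510 (467 to 556) in TG mice. The log2 difference came to 0.36 (standard error 0.175, interval -0.05 to 0.77, limma, unadjusted p = 0.0754, adjusted p = 0.788). This standard error was pulled towards that of other genes of similar level, and without the trend of the variance on expression the unadjusted p was 0.00491 (adjusted p = 0.745), while limma-voom on reads gave 0.0110 (adjusted p = 0.750). The difference lay between 0.17 and 0.41 over 21 alternatives, with 0.17 at a pseudocount of 1. Since the groups lay apart, its sign could not turn with another pseudocount, filter or variance model, or with a library left out. The difference changed little with the doubted libraries, at 0.38 without WT1 and 0.39 without TG1 and TG2. It was 0.40 with the choroid plexus score and 0.34 with the meningeal score as a covariate. The unadjusted p in limma was 0.0967 without WT1, 0.179 with the choroid plexus score and 0.123 with the meningeal score. Of the 21 alternatives, only the 2 named above had an unadjusted p under 0.05. An exact permutation test of 3 against 3 libraries cannot give a two-sided p under 0.1.

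Osmr forms the receptor for oncostatin M with gp130, encoded by Il6st, and signals through Jak1 and Stat3. Il6st had an FPKM of 8.49, 7.35 and 6.06 in WT1 to WT3 against 8.14, 8.10 and 8.83 in TG1 to TG3 (log2 difference 0.20, limma, adjusted p = 0.789). Stat3 had 6.05, 5.63 and 4.98 in WT and 6.29, 5.93 and 6.77 in TG mice (log2 difference 0.19, interval -0.05 to 0.42, adjusted p = 0.789 in limma). For both genes the groups overlapped through WT1, the highest WT library. Socs3, a feedback inhibitor that STAT3 switches on, had 0.992, 0.964 and 0.776 in WT and 1.16, 1.04 and 0.804 in TG mice, which overlapped (log2 difference 0.12, limma, adjusted p = 0.888). The ligands were near the limit of detection. Osm had 1 to 7 reads and Il6 0 to 2 reads a library and neither was tested, and Lif had 10 to 26 reads (log2 difference 0.13, limma, adjusted p = 0.939).

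Of 18 genes fixed for the interleukin-6 family and STAT3 signalling, 15 were tested, and 1 was higher and 0 were lower at an unadjusted p under 0.05, against the shares of all genes given above. The gene was Il6ra, the interleukin-6 receptor, with a mean FPKM of 1.27 ± 0.0520 in WT and 1.68 ± 0.162 in TG mice (SD, n = 3; log2 difference 0.38, limma, unadjusted p = 0.0265, adjusted p = 0.786). Its 3 TG libraries lay above its 3 WT libraries, and the difference was 0.28 with the choroid plexus score as a covariate (unadjusted p = 0.203). The median log2 difference of the 15 genes was 0.08, beside -0.002 over all genes tested. Jak1, the most abundant of them, had 28.9 ± 0.299 in WT and 27.8 ± 2.33 in TG mice (SD, n = 3).

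S1pr3 (ENSMUSG00000067586, chr13:51408639-51422797, plus strand), a receptor for sphingosine 1-phosphate, had an FPKM of 2.52, 1.80 and 1.65 in WT1 to WT3 against 2.11, 2.05 and 2.31 in TG1 to TG3. The TG libraries lay between WT1 and the other WT libraries, as for Vim. The fitted log2 difference was 0.13 (interval -0.27 to 0.53, limma, adjusted p = 0.856), and it was 0.30 without WT1 (unadjusted p = 0.0646) and 0.02 with the meningeal score as a covariate. Gm32834, a gene on the other strand, shares 45 exonic bases with S1pr3, 1.01% of its exonic length.

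Cd44 (ENSMUSG00000005087, chr2:102811141-102901665, minus strand) encodes the receptor for hyaluronan and was the only one of the 10 genes with a lower mean in TG mice. Its FPKM was 0.926, 0.567 and 0.812 in WT1 to WT3 against 0.625, 0.766 and 0.719 in TG1 to TG3. The WT libraries enclosed the TG libraries, with both the highest and the lowest value in WT mice. The log2 difference was -0.09 (interval -0.62 to 0.44, limma, adjusted p = 0.928), on 62 to 116 reads a library, and it was 0.04 without WT1. Cd44 lies 20356 bases beyond the end of Slc1a2, the gene that was edited.

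Steap4 (ENSMUSG00000012428, chr5:7960457-7982213, plus strand), which reduces iron and copper at membranes, varied most, 21.2-fold between its highest and lowest library. Its FPKM was 0.446, 0.0785 and 0.0508 in WT1 to WT3 against 0.541, 1.08 and 0.298 in TG1 to TG3. TG2 was far above the others, WT1 lay above TG3 and the groups overlapped. These values stood for 26, 4 and 3 reads in WT and 27, 61 and 17 reads in TG mice. Its log2 difference was 1.45 (standard error 0.603, interval 0.04 to 2.87), with an unadjusted p of 0.0457 and an adjusted p of 0.786 in limma. TG1 and TG2 were the 2 libraries with high choroid plexus sums, and with the choroid plexus score as a covariate the difference was 0.52 (unadjusted p = 0.483). Without both libraries it was 0.70 (unadjusted p = 0.496). Leaving out WT2, WT3, TG1 or TG2 alone gave 1.22, 1.10, 1.48 and 1.05, with unadjusted p of 0.153, 0.158, 0.111 and 0.168 in limma. WT1, the WT library with most Steap4 reads, had the highest meningeal and mural sums, and the difference was 2.03 without it (unadjusted p = 0.00952, adjusted p = 0.682). The related genes Steap1, with an FPKM of 0.0786, 0.0450 and 0.155 in WT and 1.33, 6.04 and 0.241 in TG mice, and Steap2, with 0.677, 0.719 and 0.735 against 1.61, 2.85 and 0.761, were highest in TG2 and TG1 as well. Steap1 is itself a marker of choroid plexus. Without TG1 and TG2 the log2 differences of Steap1 and Steap2 went from 2.94 and 1.01 to 0.86 and 0.089 (unadjusted p = 0.119 and 0.701).

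**Figure D2:**
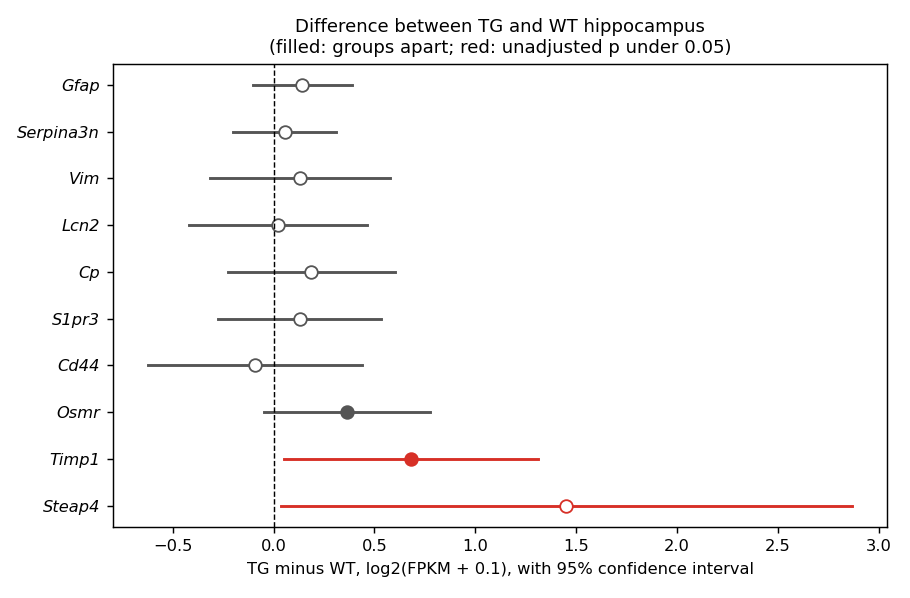
Difference between TG and WT mice on the log2(FPKM + 0.1) scale (x axis, TG minus WT) for each gene (y axis), with the 95% confidence interval of limma as a line. The intervals of Timp1 and Steap4 (red, unadjusted p under 0.05) exclude 0 by 0.05 and 0.04, and filled points mark Osmr and Timp1, whose groups lie apart.

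As a group, the 10 genes had a smallest adjusted p of 0.631 in limma under any alternative. The 2 genes that were called had 5 to 12 reads (Timp1) and 3 to 61 reads (Steap4) a library. Of the 6 genes averaging an FPKM of 1 or more, 0 were called. In a fit limited to genes of that level, 439 of 13325 genes were higher and 388 lower at an unadjusted p under 0.05. The groups lay apart for 2 of the 10 genes, Osmr and Timp1, both higher in TG mice, beside 6.35% of all genes apart and higher and 5.71% apart and lower. For 9 of the 10 genes the log2 difference was positive, as it was for 49.6% of all genes tested. The median log2 difference was 0.14 (-0.002 over all genes tested), and the within-group SD of the libraries' own median was 0.13.

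Over the 10 genes, WT1 differed from the other WT libraries. Relative to the mean of the WT libraries, the median of the 10 genes on the log2 scale was 0.21 in WT1, -0.10 in WT2 and -0.06 in WT3, whereas it was 0.17, 0.11 and 0.25 in TG1 to TG3. WT1 thus lay among the TG libraries, and 8 of the 10 genes had their highest WT value in it. With WT1 left out, 7 of the 10 genes lay above WT2 and WT3 in every TG library, namely Timp1, Steap4, Osmr, Gfap, Cp, S1pr3 and Vim, while 12.5% of all genes tested did so. WT1 was left out here with its high values of 8 of the 10 genes known, so this count is a description and no support for a difference. With any other single library left out, 2 or 3 of the 10 lay apart and higher, beside 9.52% to 12.7% of all genes tested. Without WT1 the median difference was 0.32. WT1 is the WT library with the highest meningeal and mural sums, as given above. With the meningeal score as a covariate the differences of Vim, S1pr3 and Cp were -0.02, 0.02 and 0.06, and those of Gfap and Osmr were 0.12 and 0.34. Those of Timp1, Steap4, Serpina3n, Lcn2 and Cd44 were 0.76, 1.23, 0.12, -0.05 and -0.14. The part of meningeal RNA in these values was not tested.

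**Figure D3:**
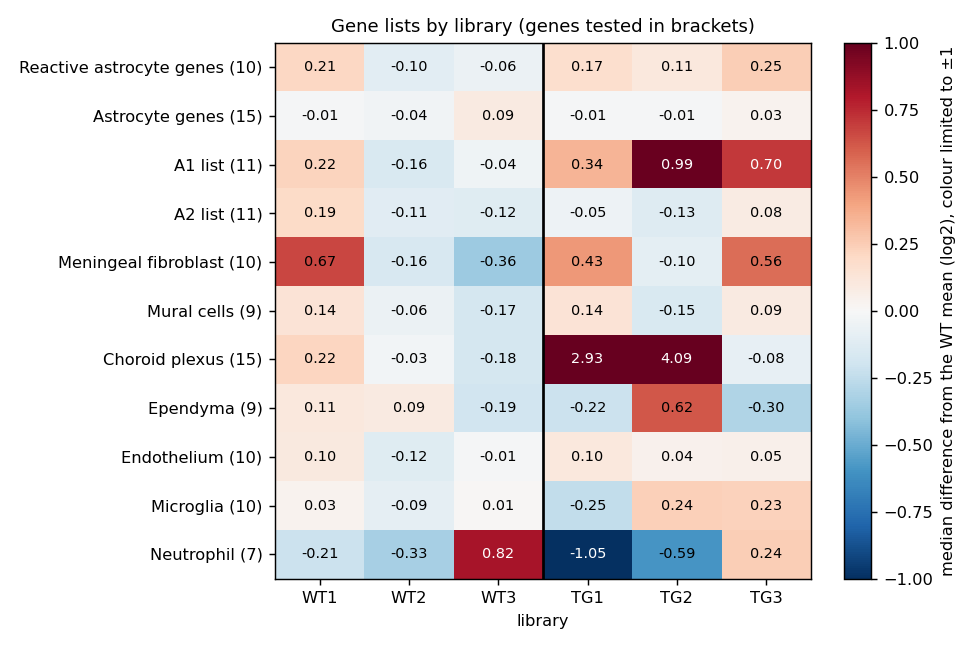
Median log2 difference from the WT mean (colour and number, limited to 1 in either direction for the colour) of each gene list (rows, with the number of genes tested) in each library (columns). The reactive astrocyte genes are above the WT mean in WT1 and in all 3 TG libraries, meningeal genes are highest in WT1, TG3 and TG1, and choroid plexus genes in TG2 and TG1.

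Other genes of reactive astrocytes were set beside the 10. Of 10 further genes induced in reactive astrocytes of most kinds, 1 was higher and 0 were lower by the unadjusted p, beside 3.13% and 2.78% of all genes tested, with a median log2 difference of 0.07. This was C4b, complement component 4, with an FPKM of 10.5, 8.71 and 6.85 in WT1 to WT3 against 10.3, 14.9 and 14.2 in TG1 to TG3. TG2 and TG3 were above all WT libraries and TG1 was not (log2 difference 0.59, interval 0.14 to 1.04, limma, adjusted p = 0.786), and the difference was 0.72 without TG1 and TG2 (unadjusted p = 0.0732). Sparcl1, the most abundant, had 557 ± 72.9 in WT and 546 ± 16.2 in TG mice (SD, n = 3). Of 13 genes linked to ischaemia-type reactivity (the A2 list), 11 were tested and 0 were higher or lower at an unadjusted p under 0.05, with a median of -0.07, and its most abundant gene, S100a10, had 12.5 ± 2.25 and 11.3 ± 2.59 (SD, n = 3). The 15 genes of resting astrocytes gave 0 higher and 0 lower by limma at an unadjusted p under 0.05, with a median of 0.01. Among them Glul had 469 ± 40.9 and 466 ± 14.6 (SD, n = 3), and S100b, with the smallest p, had 51.1 ± 7.13 and 44.9 ± 1.73 (SD, n = 3; adjusted p = 0.789 in limma).

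Among the lists of reactive genes, the 11 genes linked to inflammation-type reactivity (the A1 list) had the highest median log2 difference, 0.64. By the unadjusted p, 5 were higher and 0 lower in TG mice, beside 3.13% and 2.78% of all genes tested. They were Psmb8, an immunoproteasome subunit, H2-D1, a class I antigen-presenting molecule, the interferon-induced GTPases Iigp1 and Gbp2, and Ggta1, a galactosyltransferase, of which Iigp1, Gbp2 and Ggta1 were named after their values were seen. Psmb8 had a mean FPKM of 1.03 ± 0.103 in WT and 1.94 ± 0.367 in TG mice (SD, n = 3; log2 difference 0.84, limma, unadjusted p = 0.00179, adjusted p = 0.786). H2-D1, with the highest level of the list, had 22.5, 17.8 and 18.2 in WT1 to WT3 against 24.6, 57.3 and 45.4 in TG1 to TG3 (log2 difference 1.04, limma, adjusted p = 0.786). All 5 had every TG library above every WT library, beside 6.35% of all genes tested apart and higher. The list also held 1 gene apart and lower, beside 5.71% of all genes tested. This was the adhesion gene Amigo2 (log2 difference -0.18, limma, unadjusted p = 0.0549, adjusted p = 0.786). With the choroid plexus score as a covariate, 3 of the 11 were higher by the unadjusted p, Psmb8, Iigp1 and Gbp2, beside 330 of all 20952 genes. H2-D1 and Ggta1 no longer passed, although their log2 differences were 0.95 and 0.46, against 1.04 and 0.48 without the covariate. Without TG1 and TG2 the log2 differences of the 5 genes were 0.83 (Psmb8), 1.22 (H2-D1), 1.26 (Iigp1), 1.21 (Gbp2) and 0.47 (Ggta1). These differences rest on TG3 as the only TG library. Most of these genes respond to interferon and are expressed by microglia and endothelial cells as well as by astrocytes. Trem2 and Csf1r, of 10 microglial genes (median log2 difference 0.10), were also higher at an unadjusted p under 0.05, with Trem2 at a mean FPKM of 2.77 ± 0.133 in WT and 3.33 ± 0.0607 in TG mice (SD, n = 3), as was Flt1 of 10 endothelial genes (median 0.08), and 0 of either list were lower. Their part in the values of the A1 list was not tested.

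Of 37 partners and relatives of the 10 genes, 29 were tested, and 4 were higher (Timp3, Steap1, Steap2 and Serpina3f) and 1 was lower at an unadjusted p under 0.05, beside 3.13% and 2.78% of all genes tested, with a median log2 difference of 0.12. The lower gene was Tfrc, the transferrin receptor, with an FPKM of 19.8, 22.5 and 25.5 in WT1 to WT3 against 18.6, 16.9 and 16.5 in TG1 to TG3 (log2 difference -0.38, interval -0.62 to -0.13, limma, unadjusted p = 0.00814, adjusted p = 0.786). Every TG library lay below every WT library. Fth1, the ferritin heavy chain and the most abundant of these genes, had 2684 ± 450.0 in WT and 2218 ± 184 in TG mice (SD, n = 3; adjusted p = 0.789 in limma).

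Marker genes of other cell types give the setting of these values, and their counts stand beside the same 3.13% higher and 2.78% lower of all genes tested. At the unadjusted threshold, 7 of 15 choroid plexus genes were higher in TG mice (median log2 difference 2.26), all with their highest values in TG2 and TG1. Of 9 ependymal genes tested, 3 were lower (Ccdc153, Tmem212 and Rarres2) and 0 higher, yet the median log2 difference was 0.10 and 5 of the 9 were positive, with the list highest in TG2. The most abundant, Fam183b, had 6.03 ± 1.09 in WT and 5.24 ± 0.770 in TG mice (SD, n = 3). Meningeal fibroblast genes (10, median 0.18), mural genes (9, median 0.02) and neutrophil genes (7 tested, median -0.42) gave 0 higher and 0 lower by limma, with Dcn, Vtn and S100a9 as their most abundant members. Over these lists, 0 choroid plexus, meningeal, endothelial or microglial markers and 1 marker each of ependyma (Mia), mural cells (Tagln) and neutrophils (Elane) were at 0 in some library, so markers of each type were found in every library.

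**Figure D4:**
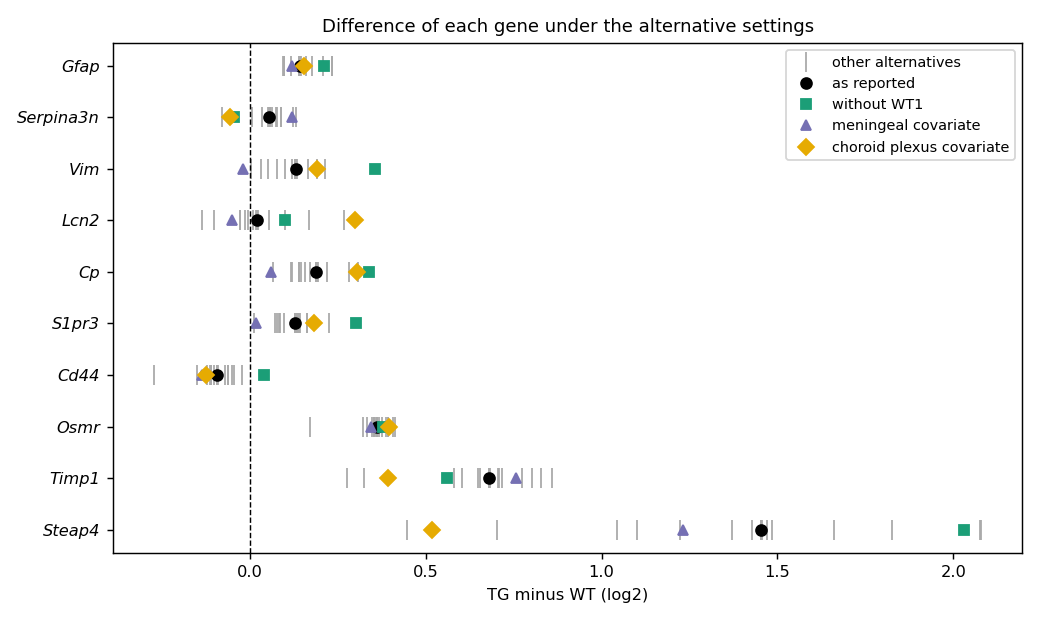
Log2 difference between TG and WT mice (x axis) of each gene (y axis) as reported (black circle), without WT1 (square), with the meningeal score (triangle) or the choroid plexus score (diamond) as a covariate, and under the other alternatives (ticks). Osmr stays between 0.17 and 0.41, Steap4 ranges from 0.45 to 2.08, and Vim, Lcn2, Serpina3n and Cd44 have values on both sides of 0.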

How the data were processed

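Hippocampal RNA of 3 WT and 3 TG mice was sequenced. The methods name Trizol, a NEBNext Ultra kit and a HiSeq instrument, whereas the labels name RNeasy and SMARTER kits. Reads per gene were counted by the authors with HTSeq 0.6.0, and the deposited values are FPKM, made from the count and the gene length, 1 column a library without pooling. The aligner and the strand setting are not given in the sources used here, and the submitters' processing notes name GRCm38. Of the gene identifiers, 54495 were found in GENCODE M21, 53585 of them with identical start and end. FPKM times gene length gave whole reads for 100% of the values (tolerance 0.05), 16081281 to 18751057 reads on genes per library. Since the reads carry no molecular identifiers, counting intervals cover counting error only.

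The genes whose FPKM averaged 0.1 or more were compared with limma 3.58.1 in R 4.3.3 (lmFit and eBayes with a trend on expression, two-sided) on log2(FPKM + 0.1), 3 WT against 3 TG libraries without covariate or block, with Benjamini-Hochberg adjustment over 20952 genes and a threshold of 0.05. Differences on this scale understate the change of low genes. Means are given with the SD. Counts of genes are given beside the share of all genes, and no test was made over a list. The score of a cell type is the mean log2 value of its marker list, without Steap1 for choroid plexus. Motifs were searched on both strands of promoter windows from RefSeq (GRCm38.p6). Shared sequence was measured over all stretches of 50 bases in the transcripts of a gene. Figures and tables were made with Python 3.11.15.

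The 10 genes and the other lists were chosen with earlier results of these data known. All 10 genes were named, and of each other list the most abundant gene and the gene with the smallest p, with Osm, Lif, Il6, Stat3, Socs3, Il6st, Cd63, Slc22a17, Serpina3 paralogs with a mean FPKM of at least 0.1 and Slc1a2. Genes outside this rule were named after their values were seen. Per the methods, WT controls were littermates, but no source used here ties the sequenced mice to litters, and p-values measure the spread between these samples. Alternatives were another pseudocount (0.01 or 1), no filter or a mean FPKM of at least 1, TPM, quantile or astrocyte scaling, no trend, robust variances, limma-voom on recovered reads, choroid plexus, meningeal or ependymal scores as covariates, each library left out and a replicate block.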

Additional observations from a re-analysis of the deposited data

How the results depend on the processing

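No gene of the 10 reached an adjusted p under 0.05 under any of the 22 alternatives (21 for the 4 genes with a mean FPKM under 1), and 0 were lower at an unadjusted p under 0.05 under any of them. The count of the 10 genes higher at an unadjusted p under 0.05 was 2 as reported, where 656 of all 20952 genes were higher. It was 1 with a pseudocount of 1 (623 of all genes), with the meningeal covariate (519) or with the mural covariate (594). It was 0 without a filter (813 of 30589 genes) or with the choroid plexus covariate (330 of 20952). It was also 0 at a mean FPKM of at least 1 (439 of 13325 genes), which leaves 6 of the 10. Leaving out 1 library gave 0 to 2 (449 to 747 of all genes), with 0 without WT3 (449) or TG2 (453). The count of genes whose groups lay apart was 2 as reported (12.1% of all genes). It was 1 relative to astrocyte genes (11.9% of all genes), 0 at a mean FPKM of at least 1 (13.1%) and 4 without TG1 and TG2 (45.1%). With 1 library left out it was 2 to 7 (18.7% to 25.5% of all genes), the highest without WT1 (24.5%). The median log2 difference of the 10 genes lay between 0.0883 without WT3 and 0.322 without WT1. The lists of other reactive, interleukin-6 and partner genes, without the 10 genes themselves, held 74 tested genes. Of these, 11 were higher and 1 was lower as reported, beside 3.13% and 2.78% of all genes tested. The higher count was 3 with the choroid plexus covariate, where 330 of 20952 genes were higher, against 656 as reported. It was 6 (without WT2) to 11 with 1 library left out, where 449 to 747 of all genes were higher. The lower count was 3 without a filter, with quantile normalization or with voom, where 730, 696 and 490 of all genes were lower. It was 2 without the trend (564 of all genes) and 1 to 3 with 1 library left out (406 to 717 of all genes). Signs turned for Lcn2 (-0.014 with quantile normalization, -0.050, -0.027 and -0.027 with the meningeal, ependymal and mural covariates, -0.14 to 0.17 with 1 library left out), Serpina3n (-0.055 with the choroid plexus covariate, -0.079 without TG1 and TG2, -0.046 to 0.13 with 1 library left out), Vim (-0.020 with the meningeal covariate) and Cd44 (-0.27 to 0.039 with 1 library left out). Over all genes, 2 had an adjusted p under 0.05 as reported and 0 to 9 under the alternatives, and the choroid plexus covariate gave 330 higher and 378 lower genes against 656 and 582. The causes were not tested. The mural covariate, the fit without TG1 and TG2, in which TG3 alone is assumed to vary like the WT libraries, and all alternatives for the other lists and genes were chosen after seeing the data. Both groups carry the numbers 1 to 3, but deviations of same-numbered libraries correlated at only 0.0125, 0.0434 and 0.0031, so the numbers were not taken as pairs. With the replicate block, 1 of the 10 genes was higher at an unadjusted p under 0.05 instead of 2, since Timp1 no longer passed. Of all genes, 634 were higher in that fit, and the median of the 10 was 0.136.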
